A study of Mus musculus with 2 samples.

Results

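miR-206 and miR-133b are a pair of muscle microRNAs whose hairpins lie close together on mouse chromosome 1. They were taken by exact name (mmu-miR-206 and mmu-miR-133b) from the array's miRNA probes, with every unflagged spot of all their probes, and make up 2 of the 1023 mouse miRNAs on the array. Both were detected on both arrays, as were 175 miRNAs in all. The data come from quadriceps, the large muscle of the front thigh, of female mice 15 to 16 weeks old. One RNA sample was from wild-type (WT) mice. The other was from mice carrying transgenes for both NF90 and NF45 (NF90-NF45 double transgenic, dbTg). The labels give neither the promoter that drives the transgenes nor the number of animals behind each sample. With 1 single-colour array for each genotype, no statistical test was possible, and every difference is between 2 RNA samples. In whole muscle, fewer cells of a type and less RNA per cell cannot be told apart.

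A microRNA is cut from a hairpin in a longer primary transcript by the nuclear Microprocessor complex and then by Dicer, and its seed, bases 2 to 8, guides it to target mRNAs. NF90 binds double-stranded RNA and is stabilised by its partner NF45; their complex is known to associate with primary microRNA transcripts and to hinder the Microprocessor. miR-206 is largely restricted to skeletal muscle, where it is known from satellite cells, regenerating fibres and denervated muscle. It promotes myoblast differentiation, in part through Pax7, and acts on Hdac4 in the muscle's response to nerve injury. miR-133b is a close relative of miR-133a, a microRNA of skeletal and heart muscle that is best known for acting on serum response factor. The comparison asks how the levels of these microRNAs differ in muscle of mice that carry transgenes for both proteins. The levels of the proteins in this muscle were not measured here.

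The hairpins and mature arms carry the comparison and are shown first. RefSeq (GRCm38.p6) places Mir206 at chr1:20679010-20679082 and Mir133b at chr1:20682769-20682887, both on the plus strand, with 3686 bases between them. Both lie inside the span of Lincmd1 (chr1:20669882-20682958), the gene of the muscle long non-coding RNA linc-MD1, and Mir133b ends 71 bases before the end of that gene. No other hairpin within this stretch has a probe on the array. In the hairpins below the mature arms are in capitals.
Mir206 hairpin: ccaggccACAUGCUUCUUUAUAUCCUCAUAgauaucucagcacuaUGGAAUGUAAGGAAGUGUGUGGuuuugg
Mir133b hairpin: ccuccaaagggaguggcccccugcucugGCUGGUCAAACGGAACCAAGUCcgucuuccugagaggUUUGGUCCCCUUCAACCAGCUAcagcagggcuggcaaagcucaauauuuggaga

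The array's miR-206 and miR-133b are the 3′ arms, and its miR-206* and miR-133b* are the 5′ arms. In the mature sequences the seed is in capitals. The members do not share a seed, so they fall in different target families. miR-206 shares its seed with miR-1, and miR-133b shares its own with miR-133a. In the RefSeq mature sequences searched, which lacked miR-1 and miR-133a, miR-6349 and miR-6382 also held the miR-206 seed.
miR-206-3p: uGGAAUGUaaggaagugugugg
miR-206-5p: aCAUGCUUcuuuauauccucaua
miR-133b-3p: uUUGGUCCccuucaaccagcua
miR-133b-5p: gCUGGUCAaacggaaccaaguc

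Each member has 2 probes, a shorter one and one that is a base longer. The probes are complementary to the 3′ end of the microRNA and determine which relatives it can be told from. The base held by the longer probe alone is in capitals.
miR-206 shorter probe: ccacacacttcctta
miR-206 longer probe: ccacacacttccttaC
miR-133b shorter probe: tagctggttgaaggggac
miR-133b longer probe: tagctggttgaaggggacC

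The longer miR-206 probe reads bases 7 to 22 of miR-206-3p and so holds 2 of the 7 seed bases. The longer miR-133b probe reads bases 4 to 22 of miR-133b-3p and holds 5 of them. In the files' own mm9 coordinates these probes are mapped to chr1:20669143-20669157 and chr1:20672919-20672936, intervals that are 1 base shorter than the probes. The miR-206 probe and the probe of miR-1 differ at 4 of 16 aligned bases. The miR-133b probe and the probe of miR-133a differ at 1 of 18, at the end that pairs with the last base of the microRNA. Signals of miR-133b and miR-133a are therefore not independent readings, and the share of each microRNA in the other's signal was not tested.

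**Figure D1:**
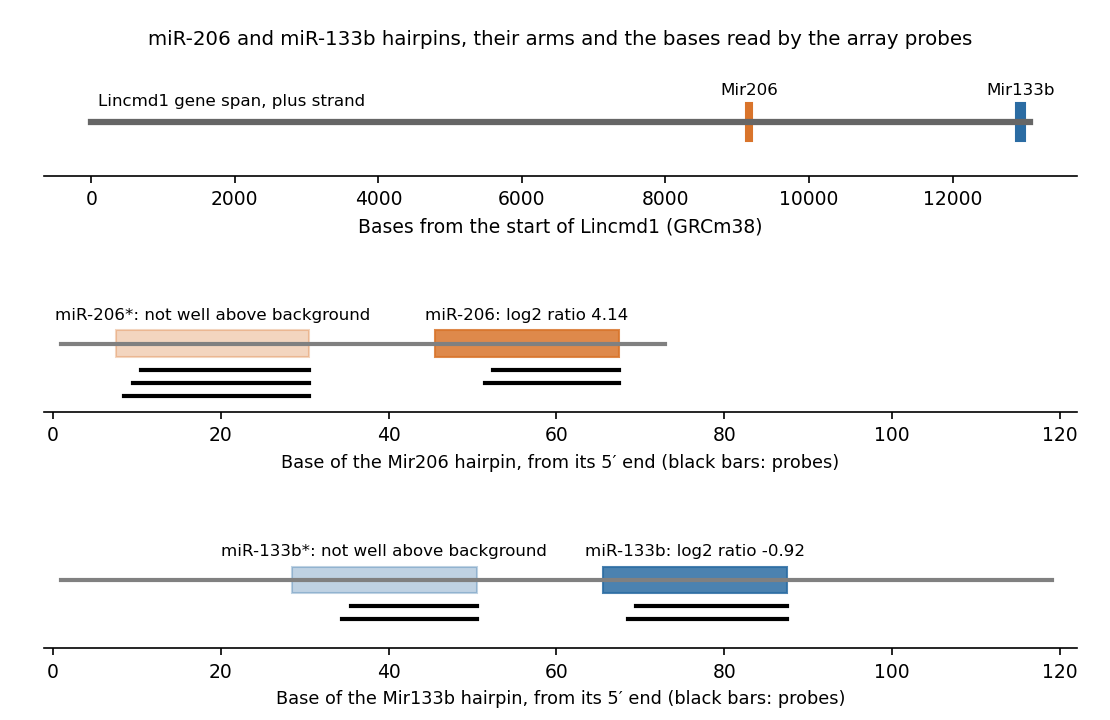
The top line shows Mir206 and Mir133b along the Lincmd1 gene in bases from its start, and the lower lines show each hairpin from its 5′ end with its arms as boxes and the probes as black bars. The 3′ arm of Mir206 had a log2 ratio of 4.14 and that of Mir133b of -0.92, and neither 5′ arm was well above background.

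miR-206 was far brighter on the dbTg array, and all 40 of its spots were well above background on each array. Its shorter probe read 428 to 505 fluorescence units on the WT array (median 474, mean 471 ± 21.4, SD, n = 19 spots) and 10439 to 11850 on the dbTg array (median 11046, mean 11104 ± 375, SD, n = 19 spots). Its longer probe read 604 to 752 units on the WT array (median 684, n = 20 spots) and 14945 to 18148 on the dbTg array (median 16742, n = 19 spots). Every dbTg spot lay above every WT spot of the same probe, with a wide gap between them. Before any scaling between arrays the probes gave 23.6-fold and 24.4-fold more signal in dbTg.

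miR-133b was bright on both arrays, and its spots were dimmer on the dbTg array. Its shorter probe read 34806 to 38745 units on the WT array (median 36854, n = 18 spots) and 24502 to 27051 on the dbTg array (median 25763, n = 20 spots). Its longer probe read 116365 to 126434 units on the WT array (median 121971, n = 17 spots) and 87173 to 92607 on the dbTg array (median 90111, n = 17 spots). Here every dbTg spot lay below every WT spot of the same probe. Unscaled, the dbTg signal was 0.701 of the WT signal for the shorter probe and 0.740 for the longer. No spot was saturated, and the coefficient of variation between spots of these probes was 1.65% to 5.40%. The scanner software's own total signal for miR-133b, also unscaled, was nearly equal on the arrays, at 44774 for WT and 43401.5 for dbTg.

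**Figure D2:**
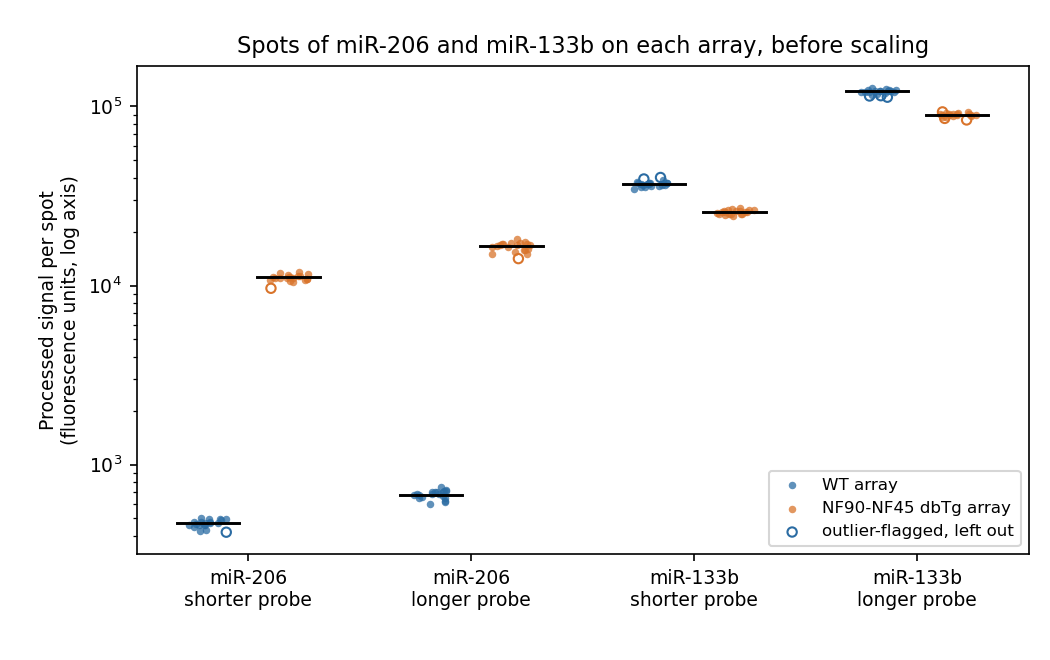
Each point is a spot, with its processed signal in fluorescence units on a log axis, for the shorter and longer probe of miR-206 and miR-133b on the WT (blue) and dbTg (orange) arrays. Bars are means over unflagged spots and open circles are spots flagged as outliers. For all 4 probes the unflagged spots of the arrays do not overlap, with dbTg higher for miR-206 and lower for miR-133b. Overlap was not counted for the other detected probes.

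Spots are copies of a probe on 1 array and not replicates of a genotype. Overlap of spots between the arrays was not counted for the other detected probes. Its absence for the members' probes therefore cannot be called particular to them. To compare the arrays, probe means were scaled to the 75th percentile of mouse miRNA probes detected on both arrays, 959 for WT and 1304 for dbTg. Detection required a share of at least 0.5 of a probe's spots with the scanner software's flag for a signal well above background. The log2 ratio of a microRNA is the mean over its probes of dbTg minus WT. Its spot SE covers the spread between spots. A second, larger error comes from Feature Extraction's own error model for the total signal of a microRNA on each array, and is called the model error here. Neither covers differences between animals.

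On this scale miR-206 was 17.6-fold higher in dbTg, with a log2 ratio of 4.14 (spot SE 0.015, model error 0.15). The probes gave 4.11 and 4.16. miR-133b was 1.89-fold lower, with a log2 ratio of -0.92 (spot SE 0.008, model error 0.16). Its probes gave -0.96 and -0.88. The range of 1 model error around miR-133b, from -1.08 to -0.75, takes in the 2-fold size (-1) that is used for counting, so miR-133b cannot be placed on either side of it.

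The probes for hairpins of 1 locus therefore gave ratios of opposite sign. The share of miR-133a in the miR-133b signal was not tested. The log2 ratio of miR-206 exceeded that of miR-133b by 5.06 (model error 0.22), a 33.3-fold difference. Any factor that applies to a whole array cancels in this difference. Spots at the same place on both arrays gave the same picture: log2 ratios ran from 3.999 to 4.28 over the 37 places of miR-206 and from -1.10 to -0.81 over the 34 places of miR-133b. Between the upper and the lower rows of the arrays the mean ratio moved by little, from 4.10 to 4.13 for the shorter and from 4.18 to 4.14 for the longer miR-206 probe, and from -0.94 to -0.98 and from -0.86 to -0.88 for the miR-133b probes.

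The second arms gave no signal to compare. None of the 40 spots of miR-206* and none of the 40 spots of miR-133b* was well above background on either array. Unflagged miR-206* spots ran from -14.0 to 12.0 units in WT (median 1.46) and from -5.79 to 19.2 on the dbTg array (median 1.65). Those of miR-133b* ran from -21.2 to 5.68 units (median -5.98) and from -11.9 to 3.73 (median -5.09). Negative control spots, which match no microRNA, ran from -9.75 to 25.4 on the WT array and from -12.0 to 21.7 on the dbTg array. The second arms thus did not exceed the highest negative control on either array, and no fold is given for them. The miR-206 hairpin yielded a measurable ratio from its 3′ arm alone.

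**Figure D3:**
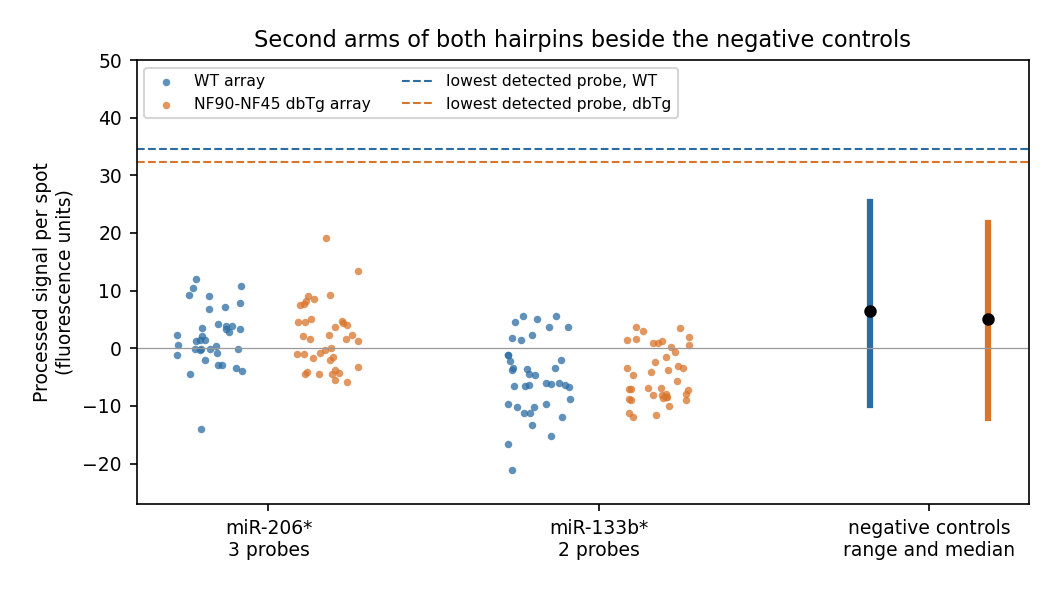
Points are unflagged spots of miR-206* and miR-133b* with their processed signal in fluorescence units on the WT (blue) and dbTg (orange) arrays, and vertical bars give the range and median of the negative control spots. All points lie below the dashed lines at the lowest mean of a detected probe, 34.5 units for WT and 32.3 for dbTg.

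Among the 175 miRNAs detected on both arrays, 21 (12.0%) were at least 2-fold higher in dbTg and miR-206 was one of them. Another 16 (9.14%) were at least 2-fold lower, and miR-133b was not among them. miR-206 ranked 1 from the highest. miR-133b ranked 23 from the lowest, so its ratio was common in this set: 23 other miRNAs lay within the combined model error of it. The median of all ratios was 0.03, with quartiles of -0.56 and 0.61. Next to the 2-fold size stood both arms of the miR-30a hairpin, miR-30a* just inside at -1.07 and miR-30a just outside at -0.997.

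By nearness of log2 ratio over the 2 samples, no miRNA detected on both arrays came close to miR-206. The nearest were miR-146a, which restrains inflammatory signalling, at 2.38, the blood-cell miRNA miR-142-3p at 2.25, and miR-34a, a target of p53, at 2.13. miR-206 exceeded miR-146a by 1.76 on the log2 scale (model error 0.27). The nearest to miR-133b were miR-1 at -0.91, miR-30e*, the second arm of the miR-30e hairpin, at -0.93, and miR-345-5p at -0.89.

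**Figure D4:**
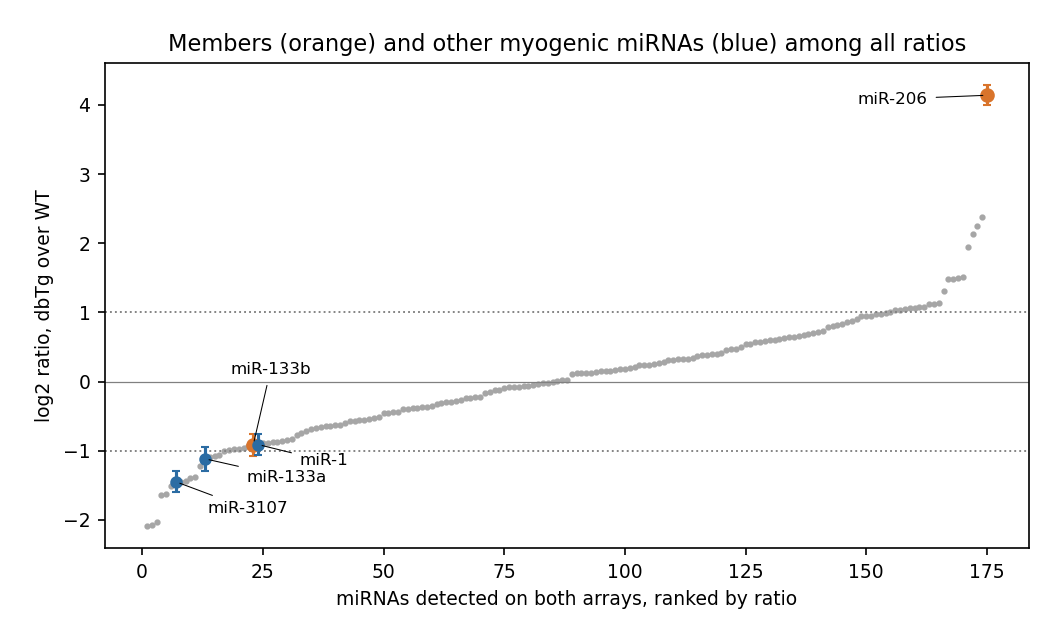
The 175 miRNAs detected on both arrays are ranked by log2 ratio of dbTg over WT, with dotted lines at the 2-fold size and error bars of 1 model error. miR-206 stands apart at 4.14 with the next miRNA at 2.38, while miR-133b at -0.92 sits beside miR-1 at -0.91.

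The muscle seed relatives miR-1 and miR-133a were lower in dbTg, like miR-133b. miR-1, the most studied muscle microRNA and a seed relative of miR-206, had a log2 ratio of -0.91 (spot SE 0.010, model error 0.16). Its mean signal over both probes was 149074 units in WT and 113081 in dbTg. The log2 ratio of miR-206 exceeded that of miR-1 by 5.05 (model error 0.22), so microRNAs with 1 seed differed in direction. miR-133a, the seed relative of miR-133b, had a log2 ratio of -1.12 (spot SE 0.006, model error 0.17), with mean signals of 48683 and 32295 units. miR-133b exceeded it by 0.20 (model error 0.24) and lay 0.007 below miR-1 (model error 0.23), so neither difference was larger than the error. miR-1 and miR-133a are each made from hairpins on other chromosomes, in the files' probe positions. The ratio of miR-133b was thus close to that of miR-1, from other loci, and far from that of its neighbour. Its closeness to miR-133a is not a separate reading, because their probes differ at 1 of 18 aligned bases.

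The myogenic list holds 8 muscle microRNAs, both members among them, and 5 were detected on both arrays. Their median log2 ratio was -0.92, against 0.03 over all 175. This median is the value of miR-133b itself and not a separate reading. Of the 5, 1 (miR-206) was at least 2-fold higher and 2 were at least 2-fold lower, against 12.0% and 9.14% of all 175. The lower pair were miR-133a and miR-3107, whose hairpin overlaps that of the muscle-enriched miR-486, at -1.45. The range of 1 model error around miR-133a (-1.12) takes in -1, as that of miR-133b does. miR-133a fell short of the 2-fold size without scaling (-0.67), with spike-in probes (-0.85), with quantile normalization (-0.54) and with the brightest probe (-0.99). miR-499, whose hairpin sits in a slow-type myosin gene, passed detection in dbTg alone, with mean signals of 7.56 and 86.7 units, at least 1.84-fold higher. This bound is the bright probe mean over the higher of the dim probe's own signal and the lowest detected signal of that array. miR-208b, from another slow myosin gene, read -4.62 units in WT and 21.2 in dbTg, and the heart microRNA miR-208a-3p read -5.61 and -3.18. Neither counted as detected on either array. The labelled tissue thus showed bright skeletal muscle microRNAs and no detected signal of the heart microRNA. The second arms of myogenic hairpins on other chromosomes were measurable and all 4 were at least 2-fold lower: miR-1-1* at -1.51, miR-133a* at -1.08, miR-486* at -2.07 and miR-3107* at -2.03, against 9.14% of all miRNAs detected on both arrays. The position of miR-133a* is within 1 model error (0.157) of -1, and it came to -0.63 without scaling and -0.81 with spike-in probes. With normexp miR-486* came to -1.20 and miR-3107* to -1.10. Opposite strands of 1 place are read by miR-486* and miR-3107*, and whether they are separate readings was not tested. All of these second arms but miR-133a* rest on 1 probe.

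Several immune-cell, fibroblast and injury miRNAs also had higher signals in dbTg, and their part in the ratio of miR-206 was not tested. For comparison, the ratio was above 0 for 90 of all 175 miRNAs. Of 6 immune-cell miRNAs, 5 were detected on both arrays. All 5 had ratios above 0, from 0.29 for miR-150 to 2.38 for miR-146a. Of these, 3 were at least 2-fold higher, against 12.0% of all 175. Among them miR-223 stood at 1.13, and the range of 1 model error (0.16) around it takes in the 2-fold size. miR-150 came out below 0 under 2 of the other processing settings, and miR-146a came to 1.57 with normexp. miR-142-5p was detected on the dbTg array alone, at least 4.25-fold higher. The summed scaled signal of this list was 0.643 on WT and 2.16 on dbTg. All 6 fibroblast miRNAs were above 0, the lowest miR-140 at 0.57 and the highest miR-214 at 1.07. miR-214 was the one fibroblast miRNA past the 2-fold size, and it fell short of that size under other settings, at 0.89 with scaling on all mouse probes, 0.70 with positive controls and 0.48 with normexp. The summed signal of the fibroblast list was 2.997 on WT and 5.22 on dbTg. Of 8 miRNAs of muscle injury and regeneration, 5 were detected on both arrays, from 0.80 for miR-221 to 1.495 for miR-335-5p. With normexp, miR-221 came to 0.27 and miR-335-5p to 0.53, and without detrending miR-335-5p came to 0.84. The other 3 were detected on the dbTg array alone. The share of all mouse miRNAs detected on 1 array alone was not counted, here or for miR-142-5p and miR-499. Before scaling the dbTg array was also brighter, with a median log2 ratio of 0.47 over the miRNAs detected on both arrays. miR-31 read 0.649 units in WT and 80.4 in dbTg, at least 1.63-fold higher, miR-34c read 3.40 and 50.8, and miR-222 read 10.6 and 38.9, each at least 1.02-fold higher. These are lower limits, so whether such miRNAs exceeded the ratio of miR-206 cannot be said. The summed signal of this list was 4.64 and 8.67, and miR-155 and miR-223 belong to it and to the immune list. None of the blood-vessel and red-cell miRNAs passed the 2-fold size. Blood-vessel miRNAs ran from -0.62 for miR-145 to 0.16 for miR-126-3p, with summed signals of 5.88 and 5.95. Those of red cells, miR-451 and miR-144, stood at -0.26 and -0.24, with sums of 2.82 and 2.35. The signs of miR-126-3p, miR-451 and miR-144 also changed with the scaling.

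The size of each member's ratio depended on how the arrays were scaled. The difference between the members cannot change under a factor for a whole array, and under the alternatives that are more than such a factor it ran from 4.19 with quantile normalization to 5.07 with the shorter probes alone. The median of all miRNAs moved with the scaling, from -0.34 with positive control probes to 0.47 without scaling. Over 15 alternatives that kept a filter on dim probes, miR-206 was 13.7-fold to 24.0-fold higher and ranked 1 from the highest in all 15. miR-133b was below 0 in 14 of them and at least 2-fold lower in 5. Under quantile normalization it came to 0.00, with its probes at the same rank of brightness on both arrays, while miR-206 stood at 4.19. In the authors' deposited table miR-206 read 4.38 on WT and 67.4 on dbTg, a ratio of 15.4, and miR-133b read 603 and 282, a ratio of 0.468. There miR-206* and miR-133b* sit at the lowest value of each column.

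**Figure D5:**
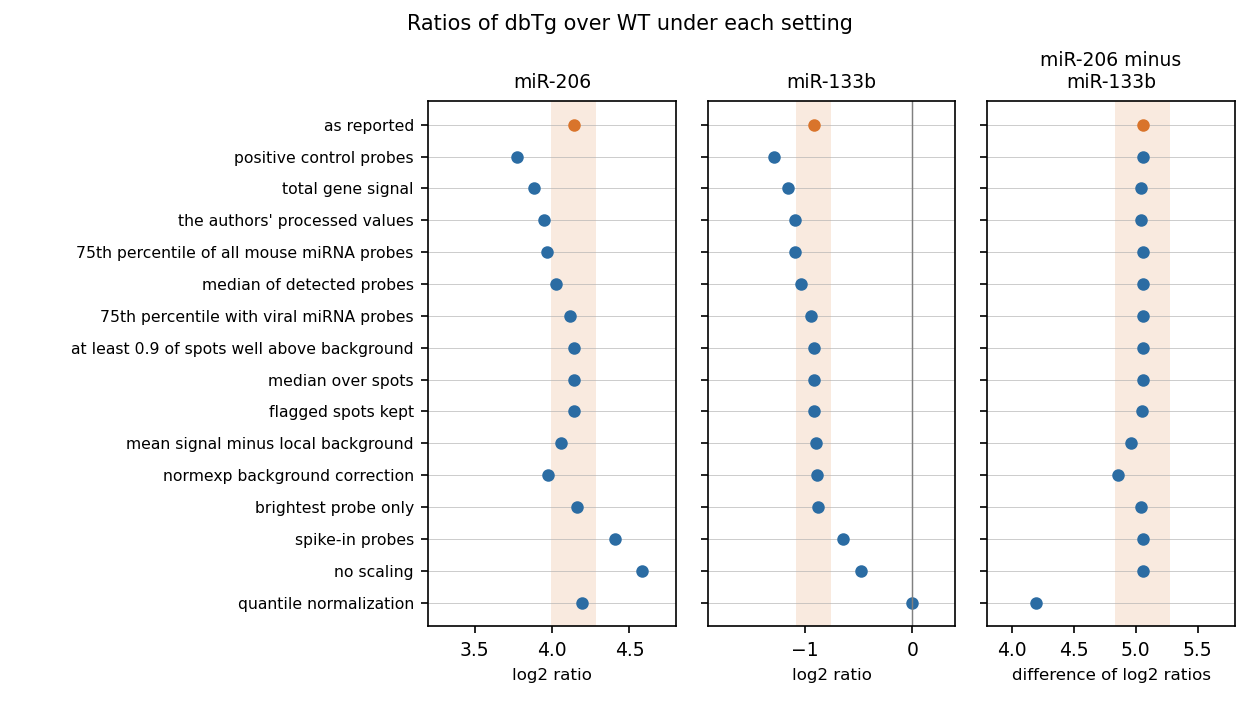
Each row is a way of processing the arrays, and each point gives the log2 ratio of miR-206 (left), of miR-133b (middle) or their difference (right), with the reported value in orange and a band of 1 model error around it. The difference lies between 4.86 and 5.06 except under quantile normalization, where it is 4.19.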

How the data were processed

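Per the labels, total RNA was labelled with Cy3 for Agilent miRNA arrays, which are read in a single colour. For each array the authors deposited the intensities of all spots, made with Agilent Feature Extraction 10.7.3.1 with background subtraction and spatial detrending, per the file headers, and a table of processed intensities whose scaling constants are not given in the sources used here. Processed signals of unflagged spots were averaged per probe, and only mouse miRNAs were compared. With 1 array per genotype there was no test, and miRNAs were counted at 2-fold. The named miRNAs are the members, their second arms and seed relatives, the myogenic list, the 3 nearest log2 ratios to each member, the neighbours of the 2-fold size, and the extremes of the marker lists. Members and lists were chosen with earlier results of these data known. The name miR-486 matched no probe, and miR-199b is listed as miR-199b*. The ratio step was tested on simulated arrays built from the WT probe means, with every change set past the 2-fold size. Simulated spots varied only by the spread between WT spots, with no differences between animals. Among the 163 miRNAs that passed detection there, 49 of 49 changed ones were recovered, which checks the arithmetic of the step and gives no error for the ratios. Changed miRNAs that did not pass were left out of this count, and changes near the 2-fold size were not simulated. normexp used limma 3.58.1 with an offset of 50. The rest ran in Python 3.11.15. The number of arrays limits the precision.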

Additional observations from a re-analysis of the deposited data

How the results depend on the processing

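No paired analysis was possible because each genotype has 1 array, which also leaves no replicate to omit. A ratio counts as moved where it shifted by more than 1 model error. Values are given in the order miR-206 and miR-133b, then the myogenic median where it moved, then the miRNAs at least 2-fold higher and lower. Except under quantile normalization, this median is the value of miR-133b itself and not a second result. Scaling on all mouse miRNA probes gave 3.97, -1.09, -1.09, 10 and 31. Without scaling they were 4.58, -0.47, -0.47, 49 and 8. Positive control probes gave 3.77, -1.28, -1.28, 9 and 39. Total gene signal gave 3.88, -1.16, -1.16, 10 and 32. The authors' processed values gave 3.95, -1.09, -1.09, 13 and 34. Scaling on spike-in probes gave 4.41, -0.65, -0.65, 35 and 11. Quantile normalization gave 0.00 for miR-133b, -0.14 for the myogenic median and 4.19 for the difference between members, the alternative that moved that difference beyond its error. With normexp, miR-206 was 3.97 and 7 miRNAs were higher. Background subtraction without detrending counted 8 higher, and the median of detected probes 13 higher and 26 lower. Without a filter on dim probes 121 were higher and 88 lower, and miR-206 ranked 5 from the highest, behind 4 that were not detected on both arrays. A size of 1.5-fold counted 47 and 42, and 3-fold counted 5 and 5. Including viral probes in the percentile moved neither member beyond its error (4.11 and -0.94); this and the spike-in scaling were chosen after seeing the data. Of the other 23 miRNAs named by rule, 4 changed sign. miR-126-3p came to -0.014, -0.21, -0.11 and -0.042 with all probes, positive controls, total gene signal and the authors' values. miR-150 came to -0.078 with positive controls and -0.044 with normexp. miR-144 and miR-451 came to 0.20 and 0.18 without scaling and to 0.025 and 0.0044 with spike-ins. The cause was not tested.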

Other observations

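The longer probe gave the higher ratio for all 4 of the main muscle microRNAs, by 0.05 on the log2 scale for miR-206, 0.08 for miR-133b, 0.25 for miR-133a and 0.32 for miR-1. Over the 132 miRNAs with 2 probes of unequal length detected on both arrays, the longer probe was higher for 82 (62.1%), and the median difference was 0.02. The gap for miR-206 is close to its spot error (0.03), and that for miR-1 is larger than the difference between miR-1 and miR-133b. These values were noticed in the data and no cause was tested.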
